A study of Mus musculus with 6 samples.

Results

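Kupffer cells are the resident macrophages of the liver sinusoids, and 10 genes that mark them in mice were followed through RNA-seq of 6 livers. The genes were taken as a fixed list by symbol (Clec4f, Timd4, Vsig4, Marco, Cd5l, Adgre1, Folr2, Cd163, Mrc1 and Id3). All 10 were found among the 27179 genes counted in each library, and all 10 passed the filter on low counts. The livers came from C57BL/6 mice, 3 of them wild type and 3 labelled Mettl3-deficient. Mettl3 is the catalytic subunit of the enzyme that writes N6-methyladenosine on RNA, and the sources used here do not give how it was made deficient, in which liver cells, or the age and sex of the mice. No cell sorting or treatment is named for either group. The RNA was of whole liver, so fewer Kupffer cells and less RNA of a gene per cell cannot be told apart. Since the labels number the livers without describing the animals, the p-values set the genotype difference against the spread of these 6 samples only.

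Kupffer cells sit in the sinusoid wall, where they take up bacteria, dying cells, complement-coated particles and haemoglobin from portal blood. Most descend from embryonic precursors and keep their identity through signals of the surrounding stellate, endothelial and hepatocyte cells, which include colony stimulating factor, Notch ligands and bone morphogenetic proteins. The macrophage factor PU.1, encoded by Spi1, is required for the lineage, and loss of resident Kupffer cells is followed in mouse models by monocytes that settle in the niche and slowly acquire part of this gene program.

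The sequences before the start sites of these genes are shown as a description. A link between them and the course of the genes over the 6 libraries was not tested. The motifs searched in the 250 bases before the start were GAGGAA and GGAAGT, overlapping parts of a sequence that PU.1 binds, on both strands. RefSeq promoters (GRCm38.p6) were matched for 9 of the 10 genes, all but Adgre1, with the first listed start used for each gene. For Timd4 and Cd163 that start lies past the first base of the gene (46810786 and 124304636), so their windows reach into it. At least 1 of these motifs was found in 8 of the 9, against 36.8% of 27025 promoters of the same length, and Cd163 was the gene without a match. GAGGAA was found in 5 of the 9 (23.1% of all promoters) and GGAAGT in 5 of the 9 (19.99% of all promoters). The sequences of Clec4f, Vsig4 and Timd4, which had a similar course over the libraries, and of Cd163 and Id3, which did not follow them, read 5′ to 3′ as below, with the motifs or their reverse complements in capitals.
Clec4f, chr6:83656117-83656366, minus strand: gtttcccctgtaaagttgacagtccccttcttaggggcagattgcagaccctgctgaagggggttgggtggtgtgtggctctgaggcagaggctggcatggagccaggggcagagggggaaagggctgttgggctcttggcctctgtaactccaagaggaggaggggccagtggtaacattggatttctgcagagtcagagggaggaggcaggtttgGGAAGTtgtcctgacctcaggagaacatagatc
Vsig4, chrX:96293439-96293688, minus strand: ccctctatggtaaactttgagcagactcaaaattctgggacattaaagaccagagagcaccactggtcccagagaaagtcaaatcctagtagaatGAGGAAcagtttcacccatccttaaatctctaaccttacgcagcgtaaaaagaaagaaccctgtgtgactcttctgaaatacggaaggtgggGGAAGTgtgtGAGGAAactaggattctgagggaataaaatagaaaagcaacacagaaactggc
Timd4, chr11:46810549-46810798, plus strand: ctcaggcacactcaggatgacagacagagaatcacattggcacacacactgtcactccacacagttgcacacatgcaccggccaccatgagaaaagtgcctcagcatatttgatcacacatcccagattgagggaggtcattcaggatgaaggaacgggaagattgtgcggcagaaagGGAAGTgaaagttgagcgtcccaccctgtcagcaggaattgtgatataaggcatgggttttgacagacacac
Cd163, chr6:124304401-124304650, plus strand: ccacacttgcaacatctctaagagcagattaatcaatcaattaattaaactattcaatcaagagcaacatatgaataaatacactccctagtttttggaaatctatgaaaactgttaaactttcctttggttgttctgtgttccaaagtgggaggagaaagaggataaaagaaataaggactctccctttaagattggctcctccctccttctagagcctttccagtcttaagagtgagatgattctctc
Id3, chr4:136143572-136143821, plus strand: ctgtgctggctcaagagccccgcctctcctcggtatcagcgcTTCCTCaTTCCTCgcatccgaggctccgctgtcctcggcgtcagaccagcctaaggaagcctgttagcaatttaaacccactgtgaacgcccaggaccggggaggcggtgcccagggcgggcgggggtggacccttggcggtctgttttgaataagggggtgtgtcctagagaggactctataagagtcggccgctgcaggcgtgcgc
A match describes these letters and not a bound site, and the absence of one from a window says nothing of the factor.

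The libraries held 31960205 to 36025772 counts. Mettl3 had 13.4, 14.3 and 12.1 TMM-normalised CPM (counts scaled to a common library size) in the wild-type livers and 5.96, 6.60 and 4.94 CPM in the Mettl3-deficient livers, without overlap (log2 fold change -1.18 ± 0.20, edgeR adjusted p = 0.00797). These counts cover the whole gene and include any part not deleted. Wild type replicate 1 stood apart, with correlations across genes of 0.943 and 0.939 to the other wild-type libraries, which correlated at 0.983 with each other. Counts of Y-linked genes were present in replicate 1 of wild type (6508) and in replicates 1 and 2 of the deficient livers (4747 and 5031). They were 0 in the other libraries. By these counts, not by the labels, the former livers were male and the latter female. Wild type replicate 1 was thus the only male wild-type liver. Sex and any other reason for its standing apart cannot be told apart, and fits without it partly mix genotype with sex. The values of the 10 Kupffer cell genes and the counts of calls that moved without wild type replicate 1 are given beside the results.

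Of the 10 Kupffer cell genes, 1 fell in Mettl3-deficient livers, Id3, and 0 rose (edgeR quasi-likelihood test with Benjamini-Hochberg adjustment over 14380 genes, threshold 0.05). The background was 10.5% of tested genes called lower and 13.3% called higher, so a count of 1 lower gene among 10 is near the background. Without adjustment 0 members rose at p under 0.05, and DESeq2 and limma-voom also called 0 higher. The share of all tested genes at an unadjusted p under 0.05 is not given, so such counts here and below have no background beside them. The median log2 fold change of the 10 was 0.53, against 0.01 over all tested genes, and was 0.17 without wild type replicate 1. It was 0.27 without Mettl3-deficient replicate 2, 0.88 with a covariate for Y-linked counts, 1.04 with library size alone and -0.07 when scaled to general macrophage genes. The 7 genes with positive log2 fold changes were Clec4f, Timd4, Vsig4, Marco, Cd5l, Adgre1 and Folr2, and the 3 with negative ones were Cd163, Mrc1 and Id3.

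The defining lectin and the uptake receptors come first. Clec4f encodes a C-type lectin found on Kupffer cells of mice (Entrez 51811, chromosome 6, 83644542 to 83656116, GRCm38). It had 38.0, 136 and 153 CPM in the wild-type livers and 117, 176 and 128 CPM in the Mettl3-deficient livers. Wild type replicate 1 was far below the other 5 libraries, which overlapped between the genotypes. Its log2 fold change was 0.36 ± 0.47 (SE), with a 95% interval from -0.72 to 1.45 (edgeR adjusted p = 0.594). Without wild type replicate 1 it was -0.04, with an interval from -0.57 to 0.48, which contains 0.

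Vsig4 encodes the complement receptor of the immunoglobulin family with which Kupffer cells catch particles coated with complement C3 fragments (Entrez 278180, chromosome X). It had 8.35, 27.5 and 29.7 CPM in wild-type livers and 23.7, 34.1 and 28.5 CPM in Mettl3-deficient livers. The pattern was that of Clec4f, with 1 low wild-type library and overlap among the rest. The log2 fold change was 0.40 ± 0.43 (edgeR adjusted p = 0.523), and 0.0065 without wild type replicate 1, with an interval from -0.43 to 0.44.

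Timd4, a receptor for phosphatidylserine on dying cells (Entrez 276891, chromosome 11), had 1.88, 4.81 and 6.91 CPM in wild-type and 6.18, 11.8 and 5.22 CPM in Mettl3-deficient livers. Mettl3-deficient replicate 2 was the highest library, and the other 2 Mettl3-deficient values fell between wild type replicates 2 and 3. The log2 fold change was 0.77 ± 0.50 (edgeR adjusted p = 0.28). Folr2, the folate receptor beta of resident macrophages (Entrez 14276, chromosome 7), had 4.33, 12.3 and 11.7 CPM against 13.7, 21.9 and 9.40 CPM. Its groups overlapped, and the log2 fold change, 0.67 ± 0.44, was not called (edgeR adjusted p = 0.291). Adgre1, which encodes the adhesion receptor used as the general surface marker of mouse macrophages (Entrez 13733, chromosome 17), had 4.65, 13.1 and 16.2 CPM against 17.1, 31.7 and 15.9 CPM. Wild type replicate 3 lay just above Mettl3-deficient replicate 3, so the groups overlapped, and the log2 fold change was 0.93 ± 0.46 (edgeR adjusted p = 0.179).

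**Figure D1:**
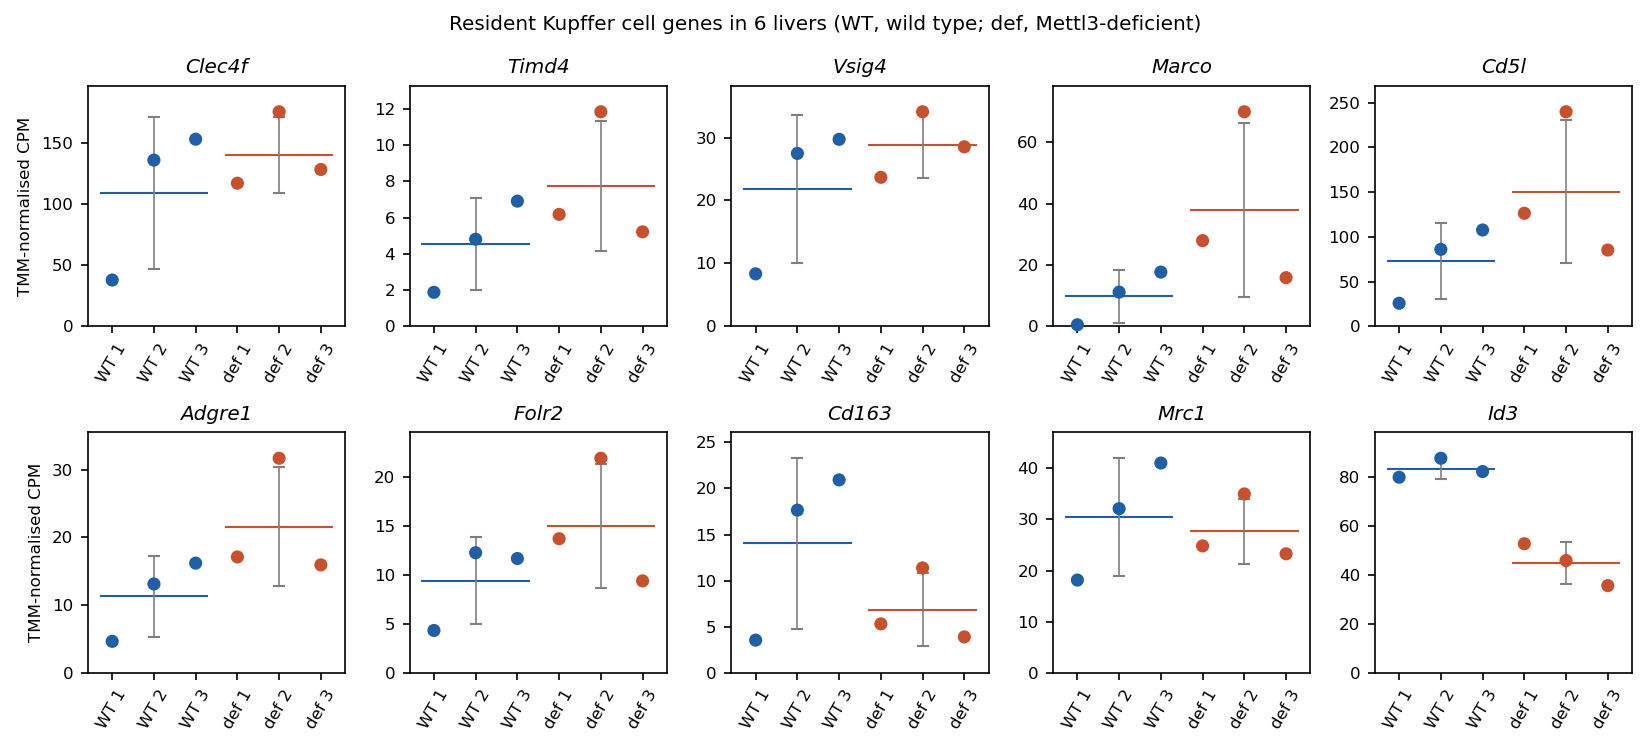
TMM-normalised CPM of the 10 genes in each library, with blue points for wild type (WT) and orange points for Mettl3-deficient (def) livers, horizontal lines at the group means and grey bars for ± SD (n = 3). Wild type replicate 1 is the lowest of the 6 libraries for 9 of the 10 genes, and Id3 is the gene whose groups do not overlap.

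A secreted protein and a scavenger receptor of bacteria follow. Cd5l encodes a secreted scavenger protein that macrophages make (Entrez 11801, chromosome 3), and it had 25.9, 86.1 and 108 CPM in wild-type livers and 126, 240 and 85.4 CPM in Mettl3-deficient livers. Mettl3-deficient replicates 1 and 2 were above every wild-type library and replicate 3 was below wild type replicates 2 and 3. The log2 fold change was 1.04 ± 0.57 (edgeR adjusted p = 0.219). Marco, a class A scavenger receptor for bacteria and particles (Entrez 17167, chromosome 1), had 0.533, 11.2 and 17.7 CPM in wild-type livers and 27.95, 69.96 and 15.9 CPM in Mettl3-deficient livers. The groups overlapped through the third libraries of each genotype, and wild type replicate 1 held 15 reads and Mettl3-deficient replicate 2 held 3160. The log2 fold change of 1.95 ± 1.17 had an interval from -1.001 to 4.91 (edgeR adjusted p = 0.274), and was 1.39 without wild type replicate 1. Leaving out that library also lowered the log2 fold change of Timd4 to 0.40, of Cd5l to 0.63, of Adgre1 to 0.56 and of Folr2 to 0.32, and none of these 4 was called with or without it.

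Cd163 was lower in Mettl3-deficient livers than in wild type replicates 2 and 3. It encodes the receptor that takes up haemoglobin bound to haptoglobin (Entrez 93671, chromosome 6, 124304636 to 124330529), and it had 3.55, 17.6 and 20.9 CPM in wild-type and 5.31, 11.4 and 3.90 CPM in Mettl3-deficient livers. Wild type replicate 1 was the lowest library, so the groups overlapped. The log2 fold change was -1.03 ± 0.67 and was not called (edgeR adjusted p = 0.29). Without wild type replicate 1 it was -1.49 ± 0.42, with an interval from -2.50 to -0.48, and was called (edgeR adjusted p = 0.0458). That fit holds no wild-type library with Y-linked counts, so genotype and these counts are partly mixed in it. The log2 ratio of the Cd163 means was 1.23 among libraries with Y-linked counts and -2.31 among those lacking them.

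Mrc1 encodes the mannose receptor, which sinusoidal endothelial cells of the liver also carry (Entrez 17533, chromosome 2). It had 18.1, 32.1 and 41.0 CPM in wild-type and 24.8, 35.0 and 23.3 CPM in Mettl3-deficient livers. The groups overlapped, with a log2 fold change of -0.14 ± 0.30 and an interval from -0.83 to 0.56 (edgeR adjusted p = 0.767). The sign of this value changed when library size alone was used, with a covariate for Y-linked counts and without wild type replicate 3, and it was -0.40 without wild type replicate 1.

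Id3 fell. It encodes an inhibitor of helix-loop-helix transcription factors that is needed for Kupffer cell development in mice and is also expressed by other liver cells (Entrez 15903, chromosome 4, 136143822 to 136145392). It had 79.9, 87.6 and 82.2 CPM in wild-type livers and 52.7, 45.9 and 35.6 CPM in Mettl3-deficient livers. Every Mettl3-deficient library was below every wild-type library, as were those of 21.9% of all tested genes, and 45.7% of all tested genes had no overlap in either direction. Id3 was the 1 member of 10 without overlap, a lower share than that background. The log2 fold change was -0.90 ± 0.17, with an interval from -1.30 to -0.50, a 1.86-fold decrease (edgeR adjusted p = 0.012). Leaving out any 1 of the 6 libraries kept the call, with adjusted p up to 0.0498 (without wild type replicate 2). With library size alone, which moved the median of all genes from 0.01 to 0.49, it was -0.41 and was not called (edgeR adjusted p = 0.113).

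**Figure D2:**
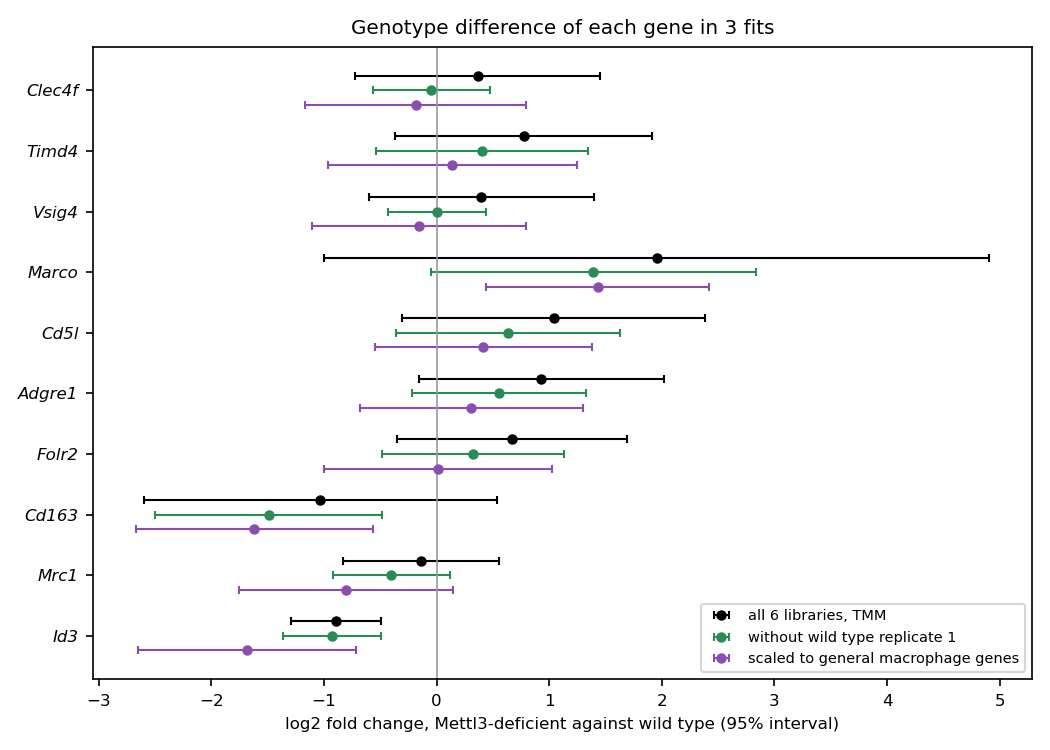
Log2 fold changes of the 10 genes, Mettl3-deficient against wild type, with 95% intervals in 3 edgeR fits (black, all libraries; green, without wild type replicate 1; purple, scaled to general macrophage genes). Id3 is below 0 in all 3 fits, Cd163 is separated from 0 in the green and purple fits, and Marco in the purple fit.

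Single libraries held the extremes of most of these genes. The lowest of the 6 libraries was wild type replicate 1 for 9 of the 10 genes, all but Id3, against 24.02% of all tested genes. Mettl3-deficient replicate 2 was the highest for 7 of the 10, against 25.7% of all tested genes. Of the 20 general macrophage genes, wild type replicate 1 was the lowest for 18 and Mettl3-deficient replicate 2 the highest for 17. Wild type replicates 2 and 3 together averaged 3.81-fold more Clec4f, 3.43-fold more Vsig4, 5.43-fold more Cd163 and 27.1-fold more Marco than wild type replicate 1. For Id3 this ratio was 1.06 and for Mrc1 2.01. The sum over the 10 genes ran from 185 to 487 CPM in wild-type and from 352 to 677 CPM in Mettl3-deficient livers.

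The split by Y-linked counts leaves 1 library in 1 of the genotypes on each side, so these ratios are given as descriptions, with no test. Among the libraries with Y-linked counts (replicate 1 of wild type, replicates 1 and 2 of the deficient livers) the log2 ratio of the means was 1.95 for Clec4f, 1.79 for Vsig4, 2.82 for Cd5l and 1.23 for Cd163. Among the libraries lacking them (replicates 2 and 3 of wild type, replicate 3 of the deficient livers) it was -0.17 for Clec4f, -0.0037 for Vsig4, -0.18 for Cd5l and -2.31 for Cd163. Marco had 6.52 and 0.14 in the same order. The ratio of Timd4 was 2.26 and -0.17, that of Adgre1 2.39 and 0.12, that of Folr2 2.04 and -0.35 and that of Mrc1 0.72 and -0.65. Id3 was below 0 on both sides (-0.70 and -1.25). With Y-linked counts as a covariate 1 member, Id3, was called.

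Likeness of genes was measured as the root mean square difference of log2 CPM, each gene centred on its mean over the 6 libraries. Values were not scaled to a gene's spread, so this distance counts the size of a change as well as its course. The closest pair of the 10 was Clec4f and Vsig4 (0.08 on the log2 scale), followed by Timd4 and Adgre1 (0.12) and Cd5l and Adgre1 (0.19), while the farthest was Marco and Id3 (2.41). Among all named genes with at least 1 CPM, the nearest pair to each member was Vsig4 and Abcg3 for Clec4f, Pirb and Clec4f for Vsig4, Armcx4 and Adgre1 for Timd4 and Timd4 and Slc11a1 for Adgre1. It was Adgre1 and Was for Cd5l, Hmox1 and Il2rb for Folr2 and Vash1 and Eno1b for Mrc1. Those of Id3 were Msh5 and Atpsckmt. The nearest genes lay farther from Marco, at 0.55 (Mthfd1l) and 0.59 (Aurkb), and from Cd163, at 0.33 (Smad9) and 0.35 (Icos). The SD over the libraries was 2.34 for Marco, against 0.43 (Mrc1) to 1.11 (Cd163) for the other members. The distances are likenesses over 6 libraries only.

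Setting each gene against Clec4f in the same library does not depend on library scaling. This comparison was chosen after the data were seen. Vsig4 had 22.0, 20.2 and 19.4 reads per 100 Clec4f reads in wild-type and 20.2, 19.4 and 22.2 in Mettl3-deficient livers, a nearly fixed ratio although Clec4f itself varied. Cd163 had 9.35, 13.0 and 13.6 reads per 100 Clec4f reads in wild-type and 4.53, 6.47 and 3.04 in Mettl3-deficient livers. All 3 Mettl3-deficient values of Cd163 were below all wild-type values, by 2.65-fold in the geometric mean. Marco had 1.40, 8.21 and 11.6 against 23.8, 39.8 and 12.4, with the groups apart in the other direction and a narrow gap between wild type replicate 3 and Mettl3-deficient replicate 3.

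Adgre1 had 12.3, 9.63 and 10.6 reads per 100 Clec4f reads in wild-type and 14.6, 18.0 and 12.4 in Mettl3-deficient livers, a geometric mean 1.38-fold higher, with 12.3 and 12.4 as the nearest values. Mrc1 had 47.8, 23.6 and 26.8 against 21.2, 19.9 and 18.1, and Id3 had 210, 64.3 and 53.6 against 45.0, 26.1 and 27.7. Both were lower in each Mettl3-deficient library. Other liver cells express both genes too, so these ratios are not levels per Kupffer cell and also move with Clec4f. In wild type replicate 1, Clec4f had 38.0 CPM and Id3 79.9 CPM. In CPM Mrc1 was not called (edgeR adjusted p = 0.767). Timd4 (4.96, 3.53 and 4.51 against 5.27, 6.74 and 4.06), Folr2 (11.4, 9.01 and 7.62 against 11.7, 12.5 and 7.31) and Cd5l (68.2, 63.2 and 70.3 against 108, 136 and 66.4) overlapped. For the 5 genes whose groups did not overlap the exact two-sided permutation p was 0.1, the smallest that 3 against 3 libraries allow. It was 0.18 after adjustment over the 9 genes. The share of all genes without overlap in this ratio was not computed, so the count of 5 has no background beside it. In CPM alone 45.7% of all tested genes had no overlap.

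**Figure D3:**
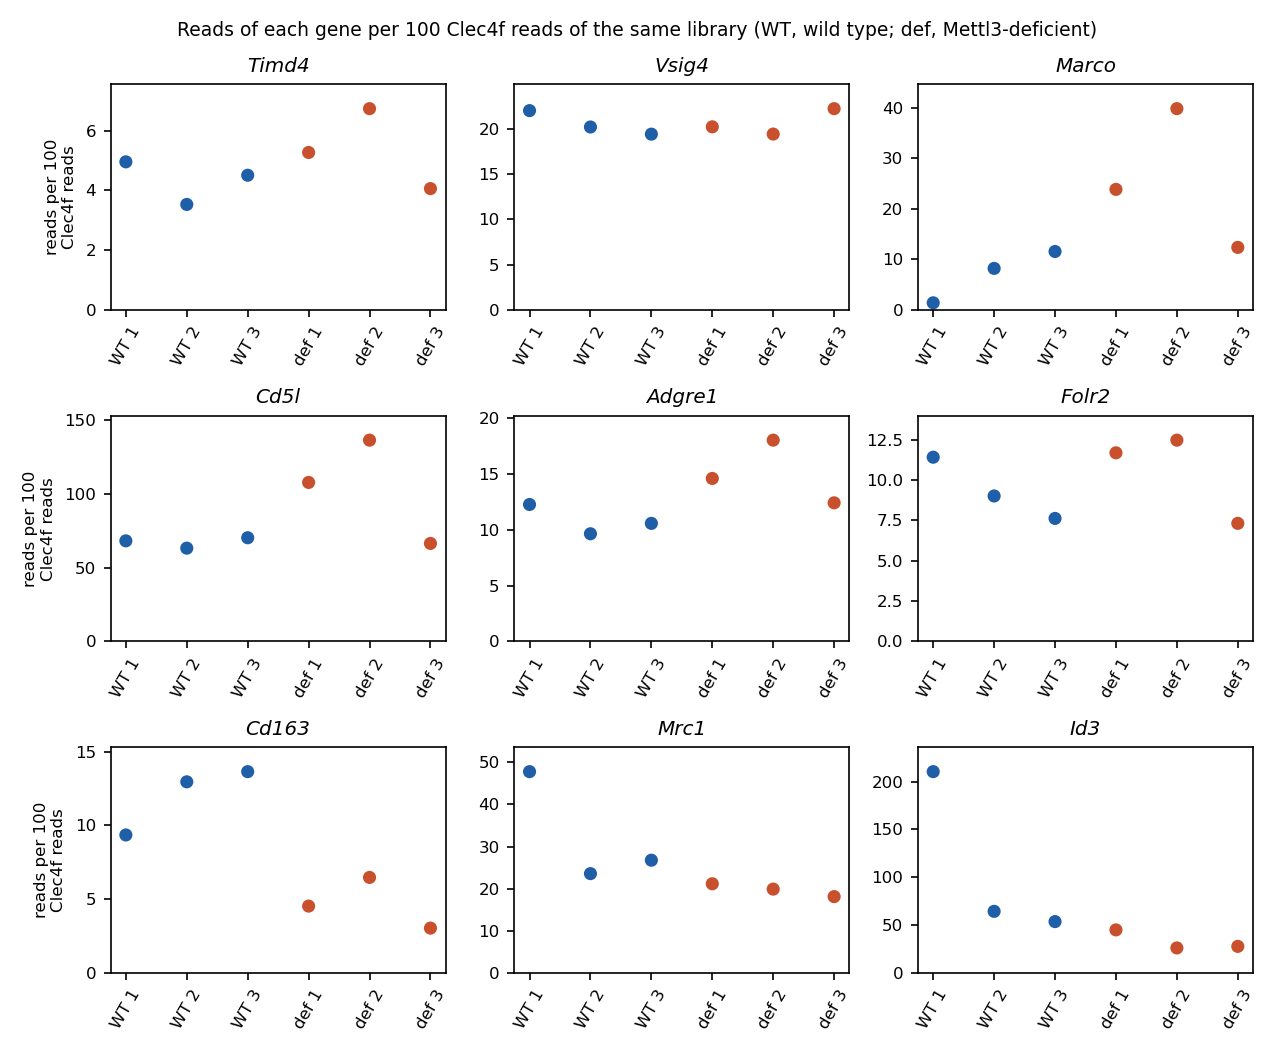
Reads of each of the other 9 genes per 100 Clec4f reads of the same library, blue for wild type (WT) and orange for Mettl3-deficient (def) livers, on linear axes from 0. Vsig4 stays between 19.4 and 22.2 in all libraries, while Cd163 runs from 9.35 to 13.6 in wild-type and from 3.04 to 6.47 in Mettl3-deficient livers.

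A second reference was a list of 20 genes that most macrophages express. When libraries were scaled to these genes, the median of all genes moved to -0.77, and a value reads as change relative to macrophage genes in general. In that fit Cd163 fell (log2 fold change -1.62 ± 0.54, edgeR adjusted p = 0.0208) and Marco rose (1.43 ± 0.50, edgeR adjusted p = 0.0301), and Id3 had -1.68 ± 0.49 (edgeR adjusted p = 0.00802), values that include the shift of all genes. Clec4f (-0.19), Vsig4 (-0.16), Timd4 (0.14), Folr2 (0.01), Adgre1 (0.31), Cd5l (0.42) and Mrc1 (-0.80) were not called.

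Levels of different genes were compared only as CPM per kilobase of exon. In wild-type livers Id3 was highest with 65.1 ± 3.11 (SD, n = 3), followed by Clec4f with 44.2 ± 25.2, Cd5l with 35.98 ± 20.8 and Vsig4 with 15.3 ± 8.20. Folr2 had 7.14 ± 3.35, Mrc1 5.66 ± 2.15, Marco 5.09 ± 4.50, Adgre1 3.50 ± 1.85, Cd163 3.13 ± 2.06 and Timd4 2.09 ± 1.16 CPM per kilobase. In this order no neighbours differed by more than the larger of their SDs. In Mettl3-deficient livers Cd5l led with 74.0 ± 39.3, before Clec4f with 56.9 ± 12.6, Id3 with 35.0 ± 6.74, Vsig4 with 20.1 ± 3.64 and Marco with 19.7 ± 14.7. Then came Folr2 with 11.4 ± 4.82, Adgre1 with 6.66 ± 2.71, Mrc1 with 5.15 ± 1.18, Timd4 with 3.57 ± 1.65 and Cd163 with 1.53 ± 0.886, the lowest of the 10. There Clec4f and Id3, Id3 and Vsig4, and Timd4 and Cd163 were the neighbours that differed by more than the larger SD.

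Of 12 other genes of resident Kupffer cells 1 rose, 2 fell and 9 were not called, against 13.3% of all tested genes called higher and 10.5% lower. The median log2 fold change of the 12 was 0.21 (-0.13 without wild type replicate 1). For 10 of the 12 the lowest library was wild type replicate 1. Fabp7, a fatty acid binding protein, rose to 5.96 ± 1.94 CPM from 1.14 ± 0.137 CPM in wild type (SD, 3 livers each; edgeR adjusted p = 0.00428). Hpgd, which inactivates prostaglandins, fell from 144 ± 32.7 to 46.4 ± 9.42 CPM (edgeR adjusted p = 0.00532). Nr1h3, the oxysterol receptor LXRalpha that supports Kupffer cell identity and is also made by hepatocytes, fell from 138 ± 13.2 to 94.3 ± 5.55 CPM (edgeR adjusted p = 0.0406), a call that 4 single libraries decided, namely replicates 2 and 3 of wild type and 1 and 2 of Mettl3-deficient (adjusted p up to 0.152). The summed level of 8 hepatocyte markers was 137856 to 176249 CPM in wild-type and 46356 to 75874 CPM in Mettl3-deficient livers, and its part in these values was not tested. Alb alone had 108639 to 141166 CPM in wild-type and 32061 to 53329 CPM in Mettl3-deficient livers.

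Of the 20 general macrophage genes 4 rose, 1 fell and 15 were not called, against 13.3% of all tested genes called higher and 10.5% lower. The median of the 20 was 0.77 (0.61 without wild type replicate 1). Those that rose were Cd14, a lipopolysaccharide co-receptor, from 2.93 ± 1.22 to 10.7 ± 2.09 CPM (edgeR adjusted p = 0.0109), the lysosomal protease gene Ctss, the lysozyme gene Lyz2 and Cd68, a lysosomal glycoprotein. Of these, Cd14 kept its call whichever 1 library was left out (adjusted p up to 0.0431). Ctss lost it on leaving out replicate 2 of wild type or replicate 1 or 2 of the Mettl3-deficient livers. Lyz2 lost it on leaving out replicate 2 or 3 of wild type or replicate 2 of the deficient livers, and Cd68 on leaving out any of these 3 or replicate 1 of the deficient livers. None of the 4 was called higher when scaled to the list itself. Neither Csf1r, the receptor of the main macrophage growth factors, nor Spi1 was called, with log2 fold changes of 0.46 and 0.84 (adjusted p of 0.441 and 0.139 in edgeR).

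Of 15 tested genes of monocytes and recruited macrophages 9 rose and 0 fell, against 13.3% and 10.5% of all tested genes. The count that fell was also 0 without adjustment, with DESeq2 and with limma-voom. The median of the 15 was 1.69, and 11 were higher without overlap between groups, against 23.9% of all tested genes. Gpnmb, a lysosomal membrane glycoprotein, rose from 0.369 ± 0.138 to 10.7 ± 4.65 CPM (edgeR adjusted p = 0.00131) and the tetraspanin gene Cd9 from 13.6 ± 5.20 to 78.8 ± 2.06 CPM (edgeR adjusted p = 0.00174). The integrin gene Itgam and the chemokine receptor gene Ccr2 rose 4.06- and 2.74-fold, and Ms4a7 and Itgax were among the called. For 3 of these 15 the lowest library was wild type replicate 1. Their summed level was 103 to 129 CPM in wild-type and 209 to 315 CPM in Mettl3-deficient livers, and its part in the values of the Kupffer cell genes was not tested. Of this sum Spp1, whose groups overlapped, held 59.3 to 98.2 CPM in wild-type and 51.3 to 181 CPM in Mettl3-deficient livers. Spp1 was not called (edgeR adjusted p = 0.392). Cd9 alone held 10.3 to 19.6 CPM of the sum in wild-type and 76.7 to 80.8 CPM in Mettl3-deficient livers. Only 4 of the 15 were called when replicate 2 or 3 of wild type, or replicate 1 of the deficient livers, was left out, and 2 when scaled to general macrophage genes.

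**Figure D4:**
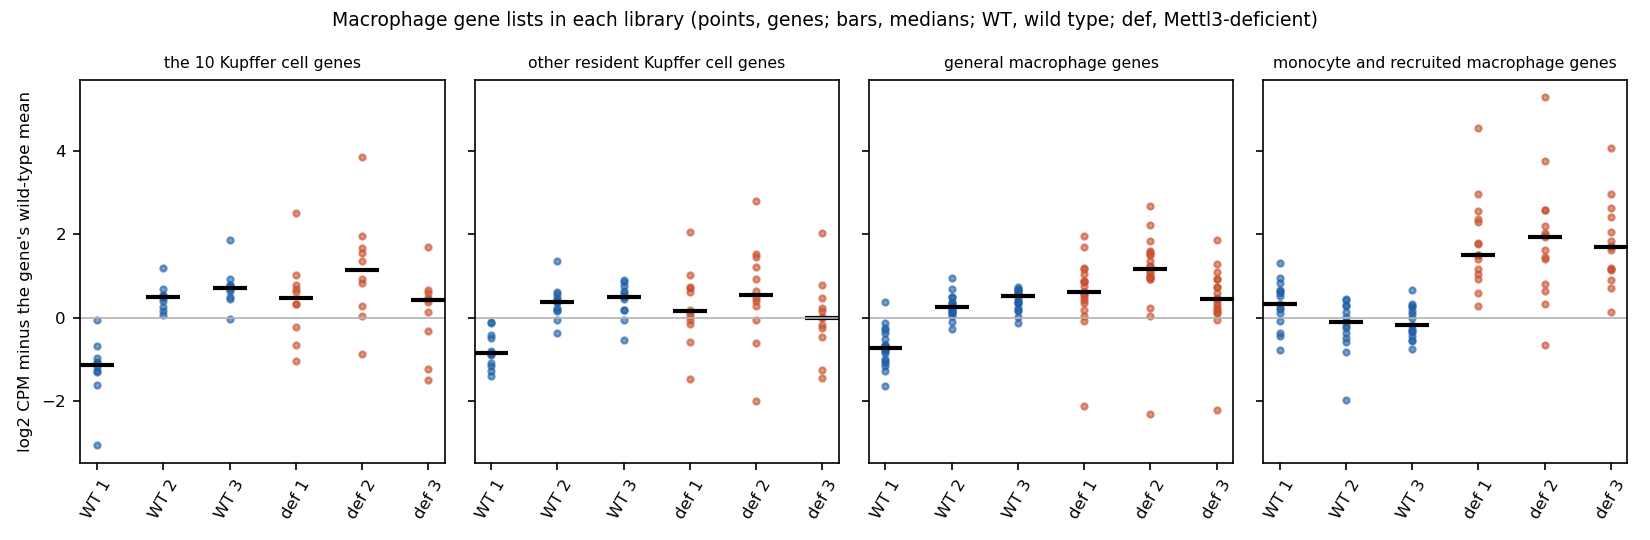
Log2 CPM of each gene minus its wild-type mean, by library, for the 10 Kupffer cell genes and 3 other macrophage lists (points, genes; black bars, medians; blue, wild type; orange, Mettl3-deficient). The median of the 10 genes is -1.13 in wild type replicate 1 and 0.42 to 1.14 in the Mettl3-deficient libraries. The latter overlap the 0.49 and 0.71 of wild type replicates 2 and 3. The general macrophage list has -0.72, 0.25 and 0.52 in wild type replicates 1 to 3 and 0.45 to 1.17 in the Mettl3-deficient libraries. The monocyte list has 1.51 to 1.93 in the Mettl3-deficient libraries and at most 0.33 in wild type.

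Of 11 genes for ligands of the Kupffer cell niche 1 fell and 0 rose, against 10.5% and 13.3% of all tested genes. At an unadjusted p under 0.05, 2 rose, as did 1 with DESeq2 and 0 with limma-voom. Without wild type replicate 1, 3 fell, with Il34 and Dll1 added. The one called with all 6 libraries was Cxcl12, a chemokine, from 469 ± 68.9 to 144 ± 56.3 CPM (edgeR adjusted p = 0.0125). Csf1, the growth factor on which Kupffer cells depend, had 10.8, 17.5 and 16.1 CPM in wild-type and 26.0, 24.6 and 20.2 CPM in Mettl3-deficient livers, without overlap but not called (edgeR adjusted p = 0.0539). Of 11 receptors and signal transducers 2 rose and 1 fell, near the 13.3% and 10.5% of all tested genes. Tgfbr2 and Notch2 rose, by 2.17- and 1.90-fold (edgeR adjusted p = 0.023 and 0.00855), and Bmpr2, a BMP receptor, fell by 2.31-fold (edgeR adjusted p = 0.0179). Tgfbr2 lost its call without wild type replicate 2 and Bmpr2 without wild type replicate 3, and both did without Mettl3-deficient replicate 1.

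Id3 is a target of BMP signals, and 9 other genes of that kind were read beside it. Of these 2 fell and 0 rose, against 10.5% and 13.3% of all tested genes. The count that rose was also 0 at an unadjusted p under 0.05, with DESeq2 and with limma-voom. Without wild type replicate 1, 3 fell, with Smad9 added. The median log2 fold change of the 9 was 0.09, with 5 above 0 and 4 below. Id2, the relative of Id3, had 155, 171 and 150 CPM in wild-type and 89.4, 78.8 and 85.4 CPM in Mettl3-deficient livers, a 1.88-fold decrease (edgeR adjusted p = 0.0087) that kept its call whichever 1 library was left out. Hamp, the iron hormone hepcidin, fell from 1383 ± 374 to 429 ± 319 CPM (edgeR adjusted p = 0.0472). That call was lost on leaving out replicate 2 or 3 of wild type or replicate 1 or 3 of the deficient livers. The 8 hepatocyte markers had a median log2 fold change of -1.10, and the part of hepatocyte RNA in the fall of Hamp was not tested. Id1 had 8.03, 21.4 and 15.4 CPM against 17.1, 23.8 and 15.9 CPM and was not called (log2 fold change 0.34, edgeR adjusted p = 0.483).

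Markers of other cells are given since whole liver was sequenced. Of all tested genes 10.5% were called lower and 13.3% higher. Without overlap between groups, 21.9% were lower and 23.9% higher. The share at an unadjusted p under 0.05, a looser threshold, is not given. Of 13 endothelial markers 1 fell, Lyve1, by 2.44-fold (edgeR adjusted p = 0.0207, lost on leaving out replicate 3 of wild type or 1 of the deficient livers), and 0 rose (0 also unadjusted, with DESeq2 and with limma-voom). At an unadjusted p under 0.05, 3 were lower, and without wild type replicate 1 the calls were 3, with Clec4g and Oit3 added. Their sum was 255 to 423 CPM in wild-type and 287 to 344 CPM in Mettl3-deficient livers, with wild type replicate 1 lowest for 7 of the 13. Of 9 stellate cell markers 0 were called by edgeR or limma-voom, 1 by DESeq2, and 3 had an unadjusted p under 0.05. Without wild type replicate 1 edgeR called 1 lower, Ecm1. Of 6 neutrophil markers 3 were tested and 2 rose (S100a9, called in 3 of the 6 analyses with a library omitted, and Csf3r, called in 0 of them), Ly6g was at 0 in every library, and the sum was 2.79 to 4.10 against 6.46 to 10.7 CPM. The 8 tested T and NK cell markers had a median log2 fold change of 1.16, with 6 above 0 and 3 higher without overlap (Cd3d, Cd3e and Cd8a), and edgeR, DESeq2 and limma-voom called 0 higher (2 at an unadjusted p under 0.05). Of the 8, 1 fell, Cd4, which had 3.13, 1.41 and 1.33 CPM against 0.496, 0.598 and 0.481 CPM, a call kept in 1 of the 6 analyses with a library omitted. Of 5 B cell, 8 dendritic cell and 2 peritoneal macrophage markers tested, 0 were called (0 of the B cell and peritoneal and 1 of the dendritic cell markers at an unadjusted p under 0.05, and 0 with DESeq2 or limma-voom). Of 8 hepatocyte markers 2 fell, Alb and Hnf4a, both lost on omitting replicate 2 or 3 of wild type or 1 of the deficient livers, and Hnf4a also on omitting replicate 2 of the latter. All 8 had log2 fold changes below 0, 7 were lower without overlap, and 7 were lower at an unadjusted p under 0.05 and with DESeq2. Without wild type replicate 1, 3 fell, with Ass1 added.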

How the data were processed

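Whole-liver RNA of the 6 samples was sequenced after ribosomal RNA removal with a directional kit, per the labels' protocols. HISAT2, featureCounts and mm10 are named per the submitters' processing notes, without versions, annotation or strand setting. What the authors deposited are raw read counts by Entrez gene, not normalized. RefSeq symbols (GRCm38.p6) matched 25275 of 27179 identifiers, and exon lengths came from GENCODE M21.

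The main test was the robust quasi-likelihood test of edgeR 4.0.16 in R 4.3.3 with TMM factors and genotype as the design. filterByExpr (minimum count 10, total 15) kept 14380 genes, and the threshold was 0.05 after Benjamini-Hochberg adjustment. The method was tested on simulated data. CPM values use TMM factors and means carry SD with n = 3. SEs and 95% intervals were derived from the F statistic. Likeness used log2 CPM with a prior count of 2.

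The 10 members, the 14 lists of 142 other genes and the tests were chosen with earlier results of these data known. Named genes are all members, the 2 nearest genes of each, every called gene of the other Kupffer, niche and BMP lists and up to 6 genes by p of each other list. Csf1, Csf1r, Spi1, Id1, Ly6g, Il34, Dll1, Smad9 and Spp1 were named after their values were seen. One called gene of the general macrophage list is not reported here. Alternatives were other factors, DESeq2 1.42.0, limma-voom (limma 3.58.1), other filters, a replicate block, a Y-linked covariate (over 100 counts) and each library left out. Libraries of a group differed beyond sampling noise (chi-square per degree of freedom 16.2 or more). Reads of genes overlapping on the other strand could not be told apart if strand was not used.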

Additional observations from a re-analysis of the deposited data

How the results depend on the processing

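Over 16 alternatives, 155 of the 160 values of the 10 Kupffer cell genes kept their side of the threshold and 154 their sign. The number of members that fell (1) was 0 with library size alone, 2 when scaled to general macrophage genes and 1 to 2 when 1 library was left out, the 2 coming without wild type replicate 1 (Cd163 beside Id3). The number that rose (0) was 1 with library size alone (Adgre1, edgeR adjusted p = 0.0439), 1 when scaled to general macrophage genes (Marco) and 0 to 0 when 1 library was left out. General macrophage genes that fell (1) numbered 0 without a filter on low counts, 0 with the replicate block, 0 with the Y-linked covariate and 0 to 1 when 1 library was left out. Those that rose (4) numbered 15 with library size alone, 0 when scaled to themselves, 7 with DESeq2 and 1 to 6 when 1 library was left out, the lowest on leaving out replicate 2 of either genotype. The cause was not tested. Lyz2, called higher, had -0.068 when scaled to general macrophage genes, a scaling that itself moves all values down. For the other lists, the range over alternatives was 1 to 2 lower and 0 to 3 higher of other Kupffer genes (2 and 1 in the main analysis), 2 to 13 higher monocyte genes (9), 1 to 3 lower and 0 to 3 higher niche ligands (1 and 0), 0 to 2 lower and 0 to 5 higher receptors (1 and 2), 0 to 4 lower BMP targets (2), 0 to 3 lower endothelial (1), 0 to 1 lower stellate (0), 0 to 2 higher neutrophil (2), 0 to 1 lower and 0 to 2 higher T and NK cell (1 and 0) and 0 to 7 lower hepatocyte markers (2). With library size alone 89.0% of all calls were higher, against 55.7% with TMM and 13.2% when scaled to general macrophage genes. Of 14380 genes, 1906 were called higher and 1514 lower with TMM, and 4810 and 595 with library size alone. With DESeq2 these numbers were 2422 and 2153, and when scaled to general macrophage genes 383 and 2508. The counts of each list under these settings are to be read beside them. Same-numbered libraries of the genotypes did not deviate together (correlations 0.08, -0.02 and 0.03; 2 of 6 libraries correlated best with their own number), so the replicate block has no basis in pairing. With it, 1 member fell and 0 rose, and 2683 genes were called, against 3420. Depth limits the lowest values, such as the 15 reads of Marco in wild type replicate 1.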
